A study of Homo sapiens with 6 samples.

Results

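SLC2A1, SLC2A3, HK2, PFKFB3, LDHA, HIF1A and VEGFA are genes of glucose uptake, glycolysis and the response to low oxygen, and their H3K27ac was compared between monocytes and macrophages. H3K27ac is the acetylated form of histone H3 found at active promoters and enhancers. The members are the H3K27ac peaks that overlap 7 hg19 windows around these genes, together 650.0 kb. There were 47 such peaks of 56420 in the M2 list and 21 of 31444 in the THP-1 list, or 68 of 87864 in all. The windows were 43.37 to 43.46 Mb of chromosome 1 for SLC2A1, 8.05 to 8.11 Mb of chromosome 12 for SLC2A3, 75.03 to 75.14 Mb of chromosome 2 for HK2 and 6.16 to 6.3 Mb of chromosome 10 for PFKFB3. Those of LDHA, HIF1A and VEGFA were 18.39 to 18.45 Mb of chromosome 11, 62.14 to 62.24 Mb of chromosome 14 and 43.71 to 43.8 Mb of chromosome 6.

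The series holds 6 ChIP libraries, for YY1, H3K27ac and input, 1 of each from THP-1 cells and from M2 macrophages. THP-1 is a human monocytic leukaemia line, an established cell line, and M2 names the alternatively activated state of macrophages. The labels give no treatment or genotype for either group, both were grown in RPMI medium with serum, and both H3K27ac libraries were made with the CST antibody D5E4. The labels do not state the source cells of the macrophages. The 2 H3K27ac peak lists are described below; YY1 and input are not analysed here. With 1 library per cell type no difference below has a replicate check, and no p-value is given.

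In low oxygen the HIF1A protein escapes the hydroxylation that marks it for destruction, pairs with ARNT and binds the core letters ACGTG of hypoxia response elements. Its targets include glucose transporters, most enzymes of glycolysis and VEGFA, the main growth factor for blood vessels. Macrophages are known to rely on glycolysis to different degrees in their different activation states, and tumour macrophages are a known source of VEGFA.

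Promoter sequences of HK2, PFKFB3 and LDHA are shown because the lists differed near a start of each gene. For PFKFB3 this was the upstream start, and the downstream start had no peak in either list within 38 kb. The sequences also differ in the hypoxia letters. They are the 250 bases before a RefSeq start, in GRCh38.p14, whose positions cannot be set against the hg19 peaks. The capitals mark ACGTG on either strand, which reads CACGT on the other strand, and CACGTG where both overlap. All lie on the plus strand, at chr2:74833877-74834126 and chr2:74834920-74835169 for HK2, chr10:6144671-6144920 and chr10:6202682-6202931 for PFKFB3 and chr11:18394313-18394562 for LDHA.
HK2 upstream start: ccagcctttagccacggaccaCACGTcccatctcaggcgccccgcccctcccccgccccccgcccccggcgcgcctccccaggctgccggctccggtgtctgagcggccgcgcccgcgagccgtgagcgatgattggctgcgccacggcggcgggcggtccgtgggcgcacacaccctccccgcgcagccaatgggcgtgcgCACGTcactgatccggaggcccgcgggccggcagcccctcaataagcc
HK2 downstream start: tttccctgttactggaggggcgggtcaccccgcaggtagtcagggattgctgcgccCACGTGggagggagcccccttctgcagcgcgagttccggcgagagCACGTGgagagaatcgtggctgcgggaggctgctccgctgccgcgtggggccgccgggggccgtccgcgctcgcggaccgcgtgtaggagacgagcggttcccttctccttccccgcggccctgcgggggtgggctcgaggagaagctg
PFKFB3 upstream start: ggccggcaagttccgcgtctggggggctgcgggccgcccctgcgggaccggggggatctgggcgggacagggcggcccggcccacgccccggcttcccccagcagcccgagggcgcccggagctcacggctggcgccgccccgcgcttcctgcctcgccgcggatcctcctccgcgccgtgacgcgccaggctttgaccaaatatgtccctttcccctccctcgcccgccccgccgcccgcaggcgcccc
PFKFB3 downstream start: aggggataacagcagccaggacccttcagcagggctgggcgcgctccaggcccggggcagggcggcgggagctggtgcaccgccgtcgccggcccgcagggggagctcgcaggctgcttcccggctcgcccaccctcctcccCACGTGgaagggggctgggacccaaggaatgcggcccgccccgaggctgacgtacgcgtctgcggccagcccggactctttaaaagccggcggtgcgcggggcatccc
LDHA upstream start: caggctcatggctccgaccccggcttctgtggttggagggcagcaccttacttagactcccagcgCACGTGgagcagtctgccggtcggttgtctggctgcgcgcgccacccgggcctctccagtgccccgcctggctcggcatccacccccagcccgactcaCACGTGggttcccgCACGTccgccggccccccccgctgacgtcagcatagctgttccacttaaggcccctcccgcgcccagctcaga

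LDHA held the letters at 3 places in the bases shown, 2 of them CACGTG, and each HK2 start at 2 places. The downstream PFKFB3 start held them at 1 place and the upstream start at none. The promoter table had 9 entries for 5 of the 7 genes, and 4 of the 9 held ACGTG on either strand, as did 18.5% of all 35116 promoters of the table over the same length. The entries of SLC2A1 and HIF1A and the second LDHA entry held none. The core letters CCAT of the YY1 motif were in 6 of the 9 entries on either strand, beside 71.4% of all promoters. SLC2A3 and VEGFA had no entry. For the hypoxia element only ACGTG was searched, so any other form of it was not counted. A match is a description of letters, not of a bound site.

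More sequence lay inside M2 peaks than inside THP-1 peaks in each of the 7 windows, although at SLC2A3 the order reversed in lists of equal length. Over the 7 windows the M2 peaks covered 47.2 kb and the THP-1 peaks 18.0 kb, a ratio of 2.62, against 2.19 for the whole lists. M2 covered at least 2 times as much in 4 windows, those of PFKFB3, HIF1A, LDHA and SLC2A1. Of all 16256 tiles of 100 kb with a peak in either list, 61.8% did so, so the count in the windows is near that of the lists as a whole. THP-1 covered at least 2 times as much as M2 in 0 windows and in 9.45% of the tiles. The share of tiles in which M2 covered more by any margin was not computed. The 7 of 7 windows are therefore not read as particular to these genes. Of the covered sequence, 13.3 kb lay inside peaks of both lists, which is 28.1% of the M2 length and 73.9% of the THP-1 length. The windows differed widely among themselves, from 12.4 times as much in M2 for PFKFB3 to 1.57 times for HK2. Without the PFKFB3 window the ratio over the others was 2.16.

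**Figure D1:**
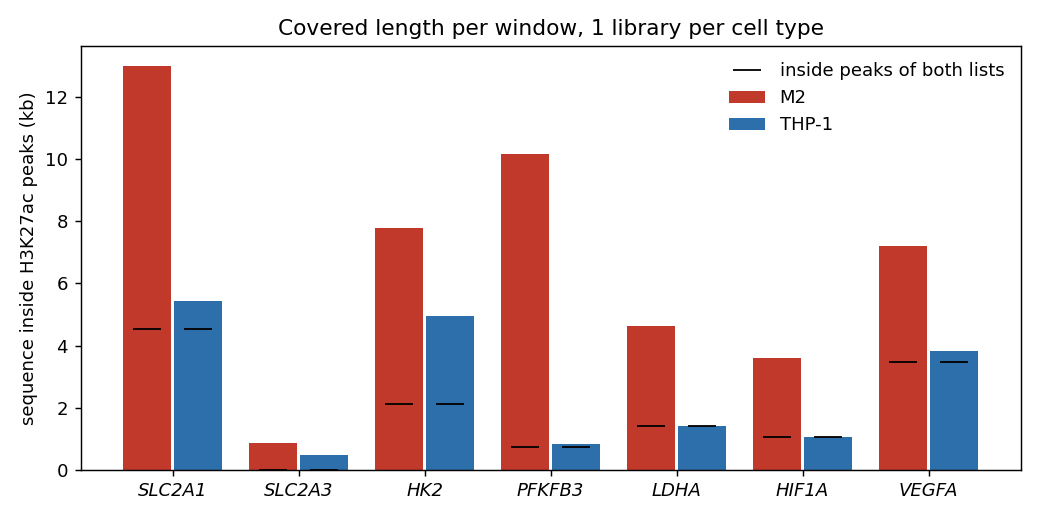
Covered length (kb, vertical axis) in each gene window (horizontal axis) in the M2 list (red) and the THP-1 list (blue), with a line at the length inside peaks of both lists. PFKFB3 has 10.168 kb against 0.82 kb, while HK2 has 7.78 and 4.95 kb and little of that in common.

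By peak number, 15 of the 47 M2 peaks were shared, meaning that at least 1 bp lay in a peak of the other list, which is 31.9% (exact 95% binomial interval 19.09 to 47.1). The share over the whole M2 list was 37.0%. Of the 21 in THP-1, 17 were shared, which is 80.95% (58.1 to 94.6), beside 75.3% over the whole THP-1 list. Both shares of the whole lists lie inside the intervals, which cover counting error only. The 4 THP-1 peaks without M2 overlap lay 1 each in the SLC2A1 and SLC2A3 windows and 2 in the HK2 window. The 32 M2 peaks without THP-1 overlap were in all 7 windows, 10 of them in that of PFKFB3.

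The peaks of the 7 genes had a higher median summit and a higher median local background than the whole lists, and a lower median fold enrichment. The fragments over each summit and the local background were recovered from the fold enrichment and p-value that the authors deposited, and are given as multiples of the lowest background of the list, its genome-wide level. The median height was 28.2 for 45 of the 47 M2 peaks and 31.7 for the 21 THP-1 peaks, against 17.4 and 22.1 over the whole lists. The median local background was 5.68 and 9.60, against 2.54 and 4.99. The authors' fold enrichment, which divides height by local background, had medians of 4.14 in M2 and 3.01 in THP-1, against 5.42 and 3.67. Heights of the 2 libraries are compared on this scale, which sets their genome-wide levels equal.

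SLC2A1 encodes the glucose transporter GLUT1, the most widespread carrier of glucose into cells. Its window had 12 peaks in M2, covering 13.002 kb, and 6 in THP-1, covering 5.45 kb. As a share of the window, 14.4% in M2 was at or above 96.7% of the tiles, and 6.05% in THP-1 at or above 94.101%. The window was densely covered in both lists. The widest peak lay about 18 kb into the gene, on chromosome 1 at 43404355 to 43408879. It was 4525 bp wide in M2, 7.74-fold over its background, with a -log10 q of 165.456 that reached or passed 99.7% of the M2 list. The THP-1 list had 2 narrower peaks under it, 1004 and 708 bp wide and 3.90- and 4.90-fold.

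Summit height at that site was 167.3 in M2, from 385 fragments, and 30.6 and 28.9 in THP-1, from 54 and 51 fragments. The M2 height was 5.47 and 5.79 times that of the THP-1 peaks (95% intervals 4.10 to 7.41 and 4.31 to 7.91, counting error only). These ratios share 1 M2 summit and were the highest of the 17 overlapping pairs in the 7 windows. The local background there was also higher in M2, 21.2 against 7.42 and 5.45. The THP-1 summits lay 68 and 821 bp from the M2 summit. A further peak at 43396902 to 43398612, about 27.6 kb into the gene, was 1711 bp wide in M2 and 1830 bp in THP-1. Its heights of 104.3 and 96.9 differed by less than counting error (ratio 1.08, 0.88 to 1.32).

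At the SLC2A1 start both lists had a peak. The M2 peak at 43423411 to 43424566 was 1156 bp wide with a height of 125.1, and the THP-1 peak inside it was 383 bp wide with a height of 82.7. The ratio was 1.51 (1.24 to 1.86). The fold enrichment of this pair was low, 3.20 and 1.67, on local backgrounds of 38.7 and 49.4. Further before the start there were 3 M2 peaks without THP-1 overlap, of 2.54- to 3.71-fold. The THP-1 peak at 43459171 to 43459676 was 2.48-fold with 20 fragments, and the nearest M2 peak was 12999 bp away.

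SLC2A3 encodes GLUT3, a high-affinity glucose transporter best known from neurons and also present in white blood cells. It had the shortest covered length of the 7 windows in both lists, with 2 peaks of 0.867 kb together in M2 and 1 of 0.481 kb in THP-1. As a share of the window, 1.445% in M2 was the lowest of the 7. In THP-1 its 0.802% was above the 0.586% of the longer PFKFB3 window. No sequence lay in peaks of both lists. The M2 peaks at 8088228 to 8088747 and 8089131 to 8089477 of chromosome 12 flanked the start, at 3.59- and 6.08-fold. The THP-1 peak, 2.68-fold with 38 fragments, lay 1565 bp from the nearer M2 peak, about 2.6 kb into the gene. In lists of equal length neither M2 peak remained and the THP-1 peak did, so the order of the lists at SLC2A3 depends on the setting.

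HK2 encodes hexokinase 2, which traps glucose in the cell by phosphorylation and is the inducible hexokinase of many tumours. In M2, 9 peaks covered 7.78 kb of its window, and in THP-1, 6 peaks covered 4.95 kb, the ratio nearest to 1 of the 7. Most of the covered sequence was not the same. Of the M2 length 27.1% and of the THP-1 length 42.7% lay in peaks of both lists. In lists of equal length the ratio was 1.01.

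The HK2 peak of highest fold in M2 overlapped no THP-1 peak. It lay across or next to the start, whose place is known here to about 1 kb. This peak, on chromosome 2 at 75058493 to 75060922, was 2430 bp wide and 8.64-fold, with 122 fragments and a height of 53.0. The nearest THP-1 peak was 1655 bp away, and the M2 peak was higher than 87.7% of its list. Next to it, at 75061309 to 75063038, an M2 peak of 1730 bp and a THP-1 peak of 448 bp had heights of 49.1 and 53.26, a ratio of 0.92 (0.70 to 1.23). Both HK2 promoters shown above hold the hypoxia letters, and which of these peaks covers which of them was not tested.

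Away from the start HK2 had sites that were higher in either list. At about 25.4 kb before the start, the M2 peak at 75034292 to 75035034 had a height of 10.9 from 25 fragments and the THP-1 peak 31.7 from 56. The ratio of 0.34 (0.20 to 0.56) was the lowest of the 17 pairs. About 11 kb into the gene, at 75070667 to 75071188, M2 had 46.49 and THP-1 18.13, a ratio of 2.56 (1.71 to 3.93). On fold enrichment both of these pairs ran the other way. The pair before the start had 5.51 in M2 and 3.17 in THP-1, with local backgrounds of 1.55 and 9.60. The pair inside the gene had 2.85 in M2 and 4.37 in THP-1, with local backgrounds of 16.002 and 3.71. A THP-1 peak without M2 overlap lay at 75075904 to 75077223, 1320 bp wide and 4.36-fold, 2672 bp from the nearest M2 peak.

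PFKFB3 encodes the enzyme that makes fructose 2,6-bisphosphate, the strongest activator of phosphofructokinase and so a pacemaker of glycolysis. Its window held 11 peaks and 10.168 kb in M2 but 1 peak and 0.82 kb in THP-1, a ratio of 12.4, the highest of the 7. The M2 share of the window, 7.26%, was at or above 85.5% of the tiles, and the THP-1 share, 0.586%, at or above 42.8%. With the window extended by 50 kb on each side the ratio was 3.08.

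The PFKFB3 peaks lay in the upstream part of the window. Of the 11 M2 peaks 4 were between 73 and 82 kb before the downstream start, towards RBM17, the next coding gene on that side. The highest folds were 13.5 at 6171134 to 6172752 and 12.4 at 6164706 to 6167003, 1619 and 2298 bp wide with 59 fragments each. These 2 peaks were above 95.2% and 93.7% of the M2 list by fold, and on local backgrounds of 1.43 and 1.58, close to the genome-wide level. Their nearest THP-1 peaks were 33173 and 32772 bp away. Whether they act on PFKFB3, RBM17 or another gene was not tested.

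At the upstream PFKFB3 start an M2 peak of 1310 bp, at 6186392 to 6187701, was 6.41-fold with 75 fragments, and no THP-1 peak lay within 18 kb. The downstream start had no peak in either list within 38 kb. The single pair of the window lay between the starts, at 6205827 to 6206640 in M2 and 6205926 to 6206745 in THP-1. There the height was 41.7 in M2 and 65.2 in THP-1, a ratio of 0.64 (0.48 to 0.85). The fold enrichment ran the other way, 5.11 and 2.21, on local backgrounds of 7.74 and 29.2. The window with the highest ratio of covered length therefore held a shared site that was higher in THP-1 by height and higher in M2 by fold.

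LDHA encodes the lactate dehydrogenase subunit that turns pyruvate into lactate. The M2 list had 3 peaks of 4.63 kb together and the THP-1 list 1 of 1.42 kb, which lay wholly inside an M2 peak. That pair lay about 10 kb before the start, on chromosome 11 at 18404096 to 18407042 in M2 and 18405133 to 18406548 in THP-1. Fold enrichment was 9.69 in M2 and 2.99 in THP-1, but the heights of 59.5 and 49.9 differed by less than counting error (ratio 1.19, 0.91 to 1.58). The local background was 2.87 times as high in THP-1.

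At the LDHA start itself M2 peaks lay on either side, at 18415476 to 18415876 and 18416186 to 18417471, with heights of 28.2 and 56.9 from 65 and 131 fragments. No THP-1 peak lay within 9 kb of the start. The M2 folds were low, 2.91 and 2.53, on local backgrounds of 9.35 and 22.2. The height of the second was at or above 89.3% of the M2 list, and its fold at or above 1.94%. This peak therefore ranked high by fragments and low by fold.

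HIF1A encodes the oxygen-regulated subunit of the factor itself, which is controlled mainly through the stability of the protein. The 5 peaks of its window in M2 covered 3.59 kb and the 2 in THP-1 covered 1.04 kb, all of the latter inside M2 peaks. At the start the M2 peak at 62162213 to 62163474 of chromosome 14 had a -log10 q of 46.0 and the THP-1 peak a -log10 q of 1.99. Fold enrichment was 4.36 and 1.44, and the heights of 78.2 and 63.5 had a ratio of 1.23 (0.97 to 1.57). About 67 kb past the start, at 62229109 to 62230149, the folds were 8.35 and 1.60 and the heights 42.1 and 29.5, a ratio of 1.43 (1.01 to 2.04). The next coding gene on that side is SNAPC1. Whether this site acts on HIF1A, SNAPC1 or another gene was not tested. Both THP-1 peaks of the HIF1A window were among the weakest of their list by -log10 q, at or above 3.16% and 0.245% of it. By height the same peaks were at or above 89.93% and 61.78% of that list, from 112 and 52 fragments. Their local backgrounds were 43.798 and 18.159, against 17.551 and 4.596 at the M2 peaks they overlap. Neither THP-1 peak reached a -log10 q of 10, so at that threshold the window held no THP-1 peak.

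VEGFA was the window with the highest share of its M2 length also inside THP-1 peaks, 48.1%. The M2 list had 5 peaks there and 7.20 kb, the THP-1 list 4 peaks and 3.84 kb, and all 4 were shared. At the start 1 M2 peak of 3352 bp, on chromosome 6 at 43737368 to 43740719, lay over 2 THP-1 peaks of 1000 and 1096 bp. The M2 height was 74.3 and the THP-1 heights were 84.4 and 116.1. The second THP-1 peak was the higher beyond counting error, with a ratio of 0.64 (0.52 to 0.79). Fold enrichment was 3.08 in M2, and 1.54 and 3.01 in THP-1. The local background was 23.7 in M2, and 54.6 and 38.2 in THP-1.

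About 20 kb past the VEGFA start the summits lay 9 bp apart with heights of 22.2 and 22.1, a ratio of 1.00 (0.65 to 1.56). The peak about 29 kb past the start, at 43765869 to 43767992 in M2 and 43766798 to 43768155 in THP-1, had the highest fold of the window in both lists, 11.4 and 8.62. In the THP-1 list that was at or above 96.8% of all peaks, the highest such rank of the 21. Its heights were 23.5 and 31.7, a ratio of 0.74 (0.50 to 1.09). Past it M2 had 2 further peaks, of 6.31- and 5.38-fold with 27 and 18 fragments, 2897 and 10043 bp from the nearest THP-1 peak.

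**Figure D2:**
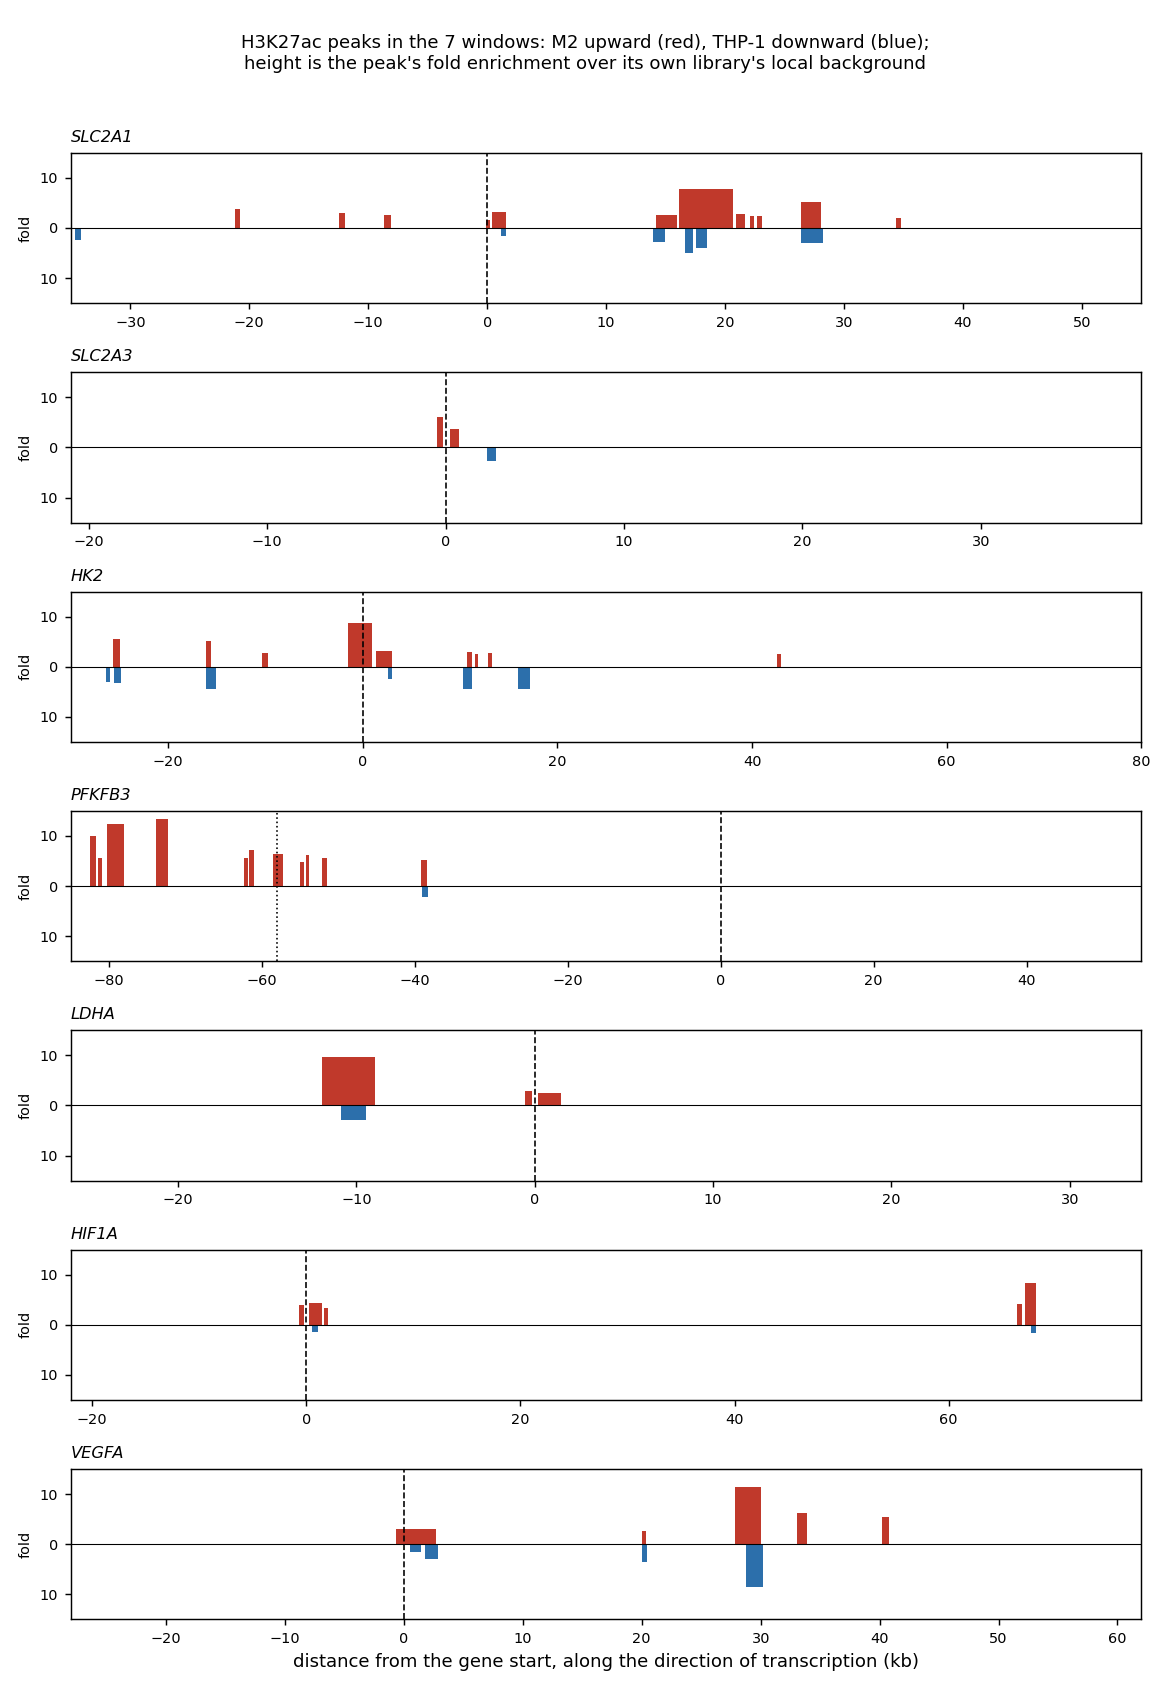
Peaks of the 7 windows by distance from the gene start (kb, horizontal axis), M2 upward in red and THP-1 downward in blue, with the authors' fold enrichment as height (vertical axis). Dashed lines are the start, the downstream one for PFKFB3, and the dotted line is its upstream start; the 10 M2 peaks without THP-1 overlap in the PFKFB3 window lie far to the left of the dashed line.

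At the main start of each gene, a peak lay within 2 kb in 6 of 7 genes in the M2 list and in 3 of 7 in the THP-1 list, those of SLC2A1, HIF1A and VEGFA. PFKFB3 brings the M2 count to 7 through its upstream start, and no second start was used for another gene. HK2, LDHA and HIF1A also had a second promoter entry. Counts of either list with those starts are not given, so the M2 count of 7 does not rest on an even rule. The share of all gene starts with a peak was not computed, for want of an hg19 annotation, and the M2 list has 1.79 times as many peaks, so these counts are not read as particular to the 7 genes. Within 5 kb the THP-1 count was 5, with HK2 and SLC2A3 added at 2.58 and 2.34 kb. The starts were placed to about 1 kb from general knowledge of hg19, because the files name no gene, so these 2 genes are on the border. LDHA and PFKFB3 had no THP-1 peak at their starts at either distance.

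At overlapping peaks, height and fold enrichment did not give the same order of the 2 libraries. M2 had the higher fold in 14 of 17 pairs, but the higher summit in 10. Over the 13 pairs in which each peak overlaps 1 other, the counts were 10 and 8, beside 83.6% and 45.4% of such pairs in the whole lists. The interval of the height ratio lay above 1 in 6 pairs, of which 4 were in the SLC2A1 window, below 1 in 3 and across 1 in 8. In the whole lists it lay above 1 in 21.5% and below 1 in 25.4% of the one-to-one pairs, and in 4 and 2 of the 13 here. The 17 pairs hold 15 M2 and 17 THP-1 peaks, so some share a peak. The median ratio was 1.08, ranging from 0.34 to 5.79. Over the 15073 one-to-one pairs of the whole lists it was 0.939, with an interquartile range of 0.649 to 1.38. The local background was higher in THP-1 in 12 of the 17 pairs, with a median ratio of 1.61, and in 10 of the 13. This is a feature of the lists as a whole, where it was higher in THP-1 in 83.4% of pairs with a median ratio of 2.12. Its part in the calls was not tested. Summits lay within 200 bp of each other in 11 of the 17 pairs and in 9 of the 13. In the whole lists they did so in 11806 of 15927 one-to-one pairs.

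**Figure D3:**
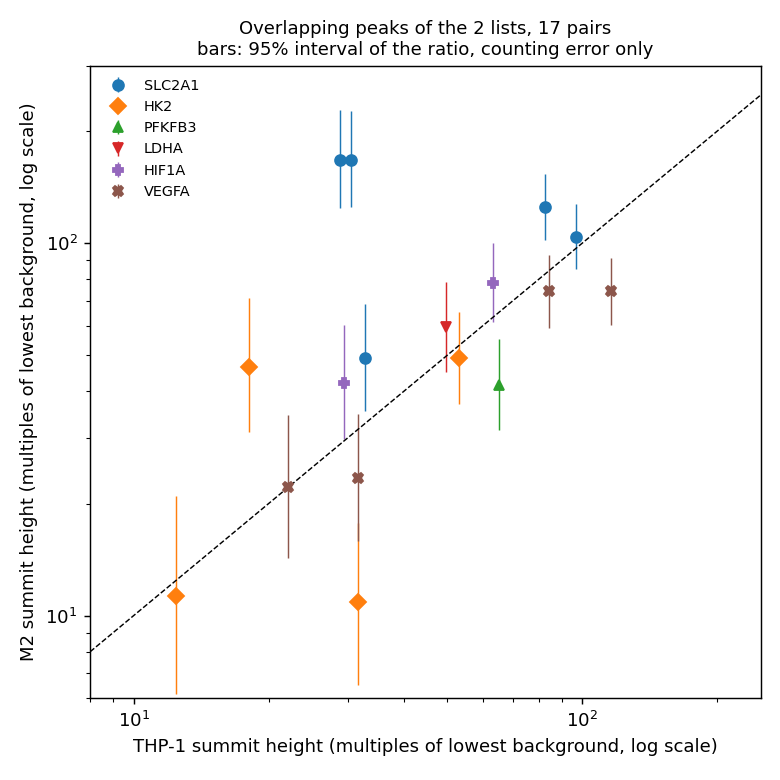
Summit height in M2 (vertical axis) against THP-1 (horizontal axis) at the 17 overlapping pairs, as multiples of the lowest background on log scales, with 95% intervals of the ratio for counting error. The dashed line marks equal height, and the 2 pairs farthest above it, at 5.47 and 5.79, share the wide SLC2A1 peak.

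Shared M2 peaks had a greater median width and height than those found in M2 alone. The median width was 1262 bp against 515.5 bp and the median height 49.1 against 23.2. These were not computed for the whole M2 list. The median fold was 5.11 against 3.80, beside 6.33 against 5.00 over the whole M2 list. The order is therefore not read as particular to these windows. The M2-only peak of highest fold in each window was at 3.71-fold for SLC2A1, 6.08 for SLC2A3, 8.64 for HK2, 13.5 for PFKFB3, 2.91 for LDHA, 4.14 for HIF1A and 6.31 for VEGFA. The 10 PFKFB3 peaks of this kind had 4.76- to 13.5-fold.

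Other genes of the pathway were looked at in 33 windows, set by hand around the gene and about 10 kb on each side. A peak was present in 29 windows in M2 and in 22 in THP-1, and all 22 also had an M2 peak. M2 covered at least 2 times as much as THP-1 in 16 windows, 55.172% of the 29 with any peak, beside 61.8% of the tiles. The reverse was met in 0 windows, although SLC16A3 and CA9, at ratios of 0.509, were just short of it. The median ratio over the 22 windows with both was 1.83, and over the 10480 tiles with both 2.01. Both values for the list were below those of the tiles.

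Of the 15 enzymes of glycolysis 6 had at least 2 times as much M2 coverage, 46.2% of the 13 with any peak, beside 61.8% of the tiles. They included PFKL, the liver phosphofructokinase, with 4.06 kb against 0.415 kb in THP-1 (ratio 9.79). PKM, pyruvate kinase, followed at 5.32 and 0.717 kb (7.42), and ENO1, an enolase, at 3.77 and 0.629 kb (5.997). These were the 3 highest ratios of the list. GAPDH, with 4.92 and 2.79 kb, and ALDOA, with 7.29 and 3.89 kb, were below 2. PGK1, phosphoglycerate kinase, had 0.584 kb in M2 and no THP-1 peak. HK3 and TPI1 had no peak in either list.

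The lowest ratios were those of SLC16A3, CA9 and NDRG1. SLC16A3, the lactate exporter MCT4, had 2.25 kb against 4.43 kb in THP-1, and NDRG1, a stress gene induced by hypoxia, 4.24 and 6.09 kb. CA9, a carbonic anhydrase used as a hypoxia marker, had 0.623 and 1.22 kb. Among 6 genes of the HIF pathway M2 covered at least 2 times as much at 4, among them EPAS1, which encodes HIF-2 alpha, with 6.98 and 1.501 kb, and EGLN1, the main HIF prolyl hydroxylase, with 10.4 and 3.46 kb. Of 8 HIF targets 5 did so. Of the windows with any peak these were 80% of 5 for the HIF pathway and 71.4% of 7 for the targets, beside 61.8% of the tiles. With so few windows the counts are not read as particular to HIF genes. The genes with M2 peaks and no THP-1 peak were PGK1, PDK1, VHL, HIF1AN, BNIP3, ADM and ANKRD37, while EGLN3 and P4HA1 had none in either list.

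**Figure D4:**
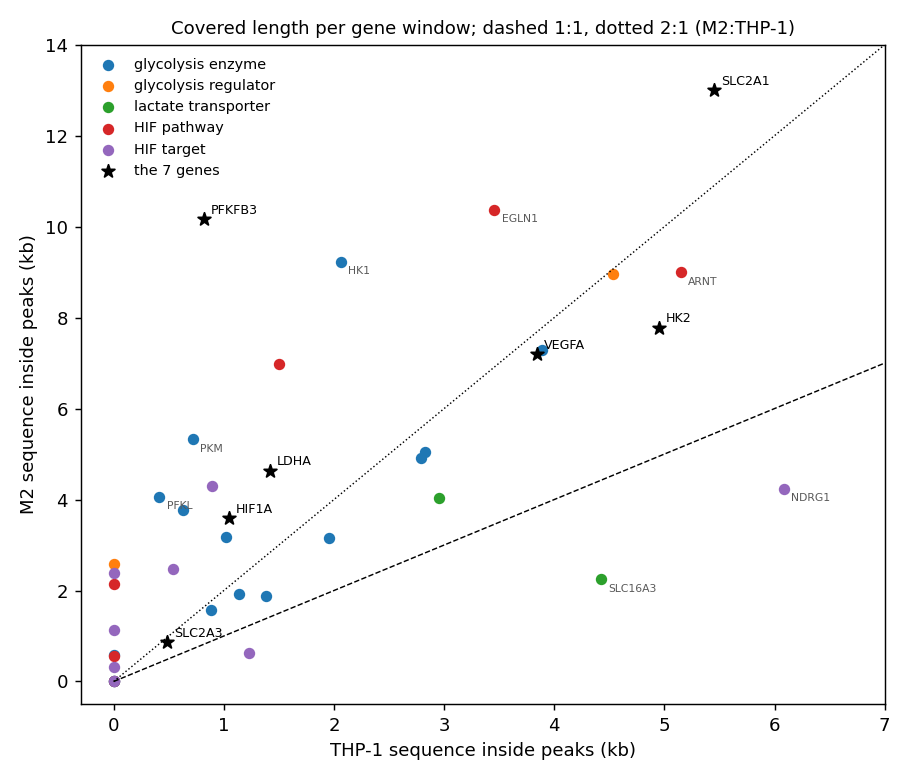
Covered length in M2 (kb, vertical axis) against THP-1 (kb, horizontal axis) for the 33 other genes (dots, coloured by class) and the 7 genes (stars), with lines at 1:1 (dashed) and 2:1 (dotted). SLC16A3, NDRG1 and CA9 are the windows with peaks that lie below the 1:1 line, and PFKFB3 stands far to the left of its M2 level.

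The labelled cell types were checked on windows of marker genes. Of 10 myeloid genes, SPI1, CSF1R and PTPRC among them, 10 had a peak in M2 and 9 in THP-1, with LYZ missing in the latter, and they held 68.2 and 33.84 kb. Of 3 genes of M2 macrophages, CD163 and CD209 had a peak in M2 and CD209 in THP-1, while MRC1, the mannose receptor, had none in either list. Of 7 fibroblast genes 4 had a peak in M2 (COL1A1, LUM, PDGFRA and TWIST1) and 1 in THP-1 (TWIST1), with windows of 0 to 4.21 kb in M2 and of 0 to 3.92 kb in THP-1. COL1A2, COL3A1 and DCN had none in either list. The epithelial genes KRT8 and CDH1 had peaks in both lists and EPCAM in neither, and CD3E, a T cell gene, had 3 M2 peaks. The part of other cells in the values above was not tested.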

How the data were processed

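H3K27ac ChIP-seq peaks of THP-1 cells and M2 macrophages were analysed. The build is hg19 and the tools include Bowtie2 (a read aligner) and MACS2 2.1.0 (a peak caller), per the submitters' processing notes; their settings and any control are not given in the sources used here, and the lists carry 1 library each. Each peak's fold enrichment, a ratio over local background, and its -log10 p and -log10 q are values deposited by the authors, in standard narrowPeak order without header, as are start, end and summit positions. The Y chromosome was left out.

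The 7 genes, the pathway and marker lists and the tests were chosen with earlier results of these data known. Member windows are those listed in the report; pathway and marker windows and gene starts were set by hand from general knowledge of hg19. Peaks of each window were counted, covered length was clipped to the window, and peaks with at least 1 bp in common were shared. The background was the whole lists and all 100 kb tiles with a peak in either list; a call was 2 times the covered length. All 7 genes are named, with the peak of highest fold, the widest, and the highest unshared one; of the pathway list, the 3 highest and 3 lowest ratios and the genes without a peak in a list. Other peaks and genes named were chosen after their values were seen.

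The files give no read counts, so sequencing depth is unknown. Pileup and background were solved from fold enrichment, (pileup + 1)/(background + 1), and the Poisson p. With a pileup scale of 0.842 in M2 and 1 in THP-1, whole fragments came out (within 0.02) for over 99.9% of peaks, against 5.2% and 8.28% at a typical other scale. A single solution was found for 54948 M2 and 30392 THP-1 peaks, and heights use these. They are an inference, not counts the authors gave. Summits are the highest point of a peak, and the intervals of ratios (exact, 95%) cover counting error only. The recovery and overlap steps were tested on simulated data. Python 3.11.15, pandas 2.3.3 and scipy 1.17.1 were used. Promoters are RefSeq, GRCh38.p14, matched by symbol for 5 of the 7 genes; their gene order names neighbours. Alternatives were a -log10 q of at least 10, equal list length, merged peaks, wider windows, other overlap rules and, added after the data were seen, leaving out the PFKFB3 window.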

Additional observations from a re-analysis of the deposited data

How the results depend on the processing

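The M2 to THP-1 ratio of covered length over the windows was 3.89 at a -log10 q of at least 10, 2.08 in lists of equal length, 2.77 after merging peaks within 1000 bp, 2.19 with windows extended by 50 kb and 2.16 without the PFKFB3 window. For the whole lists the first 3 settings gave 3.003, 1.70 and 2.15. The windows held 27 M2 peaks in lists of equal length, 31 after merging and 82 when extended. THP-1 peaks numbered 10 at a -log10 q of at least 10 and 40 in extended windows. With at least 50% of the peak covered, the shared part of the M2 peaks fell to 17.02%. The share of the whole M2 list under that rule is not given, so the fall is not read as particular to these windows. The THP-1 share was 66.7% to 90.0% over the settings run, inside its interval. Over the whole THP-1 list it was 73.7% at the stricter q, 59.6% in lists of equal length and 76.5% after merging. Within 5 kb of a start THP-1 had peaks at 5 genes. In lists of equal length THP-1 covered at least 2 times as much as M2 in 2 of the other pathway windows. The share of tiles that did so in that setting is not given. The ratio of SLC2A3 reversed to 0 in lists of equal length, where M2 had no peak left. At a -log10 q of at least 10 no ratio could be given for SLC2A3 and HIF1A, which had no THP-1 peak. The ratios of the other genes stayed above 1 in the settings run, but SLC2A1 went below 2, to 1.97 in lists of equal length and 1.86 in extended windows, and 3 genes went above 2: HK2 at 2.32 and VEGFA at 2.58 under the stricter q, HK2 at 2.29 in extended windows and SLC2A3 at 2.60 after merging. The causes were not tested. A peak list cannot show H3K27ac below its threshold, so a site in 1 list is a difference in calls; heights at sites without a peak could not be recovered.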
